A study of Mus musculus with 8 samples.

Results

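The RNAs described here are 7 of the 32285 features counted per nucleus in the mouse striatum: AC149090.1, Gm49906, A830036E02Rik, Gm17167, Ftl1-ps1, Gm40663 and E430024P14Rik. None has an established protein name. They were chosen because their counts differed strongly between mouse strains in several cell clusters, so their levels by strain are a description of that choice and carry no test. Nuclei came from frozen striatum of mice of both sexes, 12 weeks of age, with no treatment given in the labels, from 8 inbred strains: the laboratory strains NZO/HlLtJ, A/J, NOD/ShiLtJ, C57BL/6 and 129S1/SvImJ and the wild-derived PWK/PhJ, WSB/EiJ and CAST/EiJ. The deposited table and the design text name different C57BL/6 substrains (C57BL/6NJ and C57BL/6J), so only C57BL/6 is written. Nuclei of 1 mouse per strain were mixed in each of 4 batches and run on the 10x Genomics Multiome platform, which captures RNA and accessible DNA of each nucleus together. The deposited annotation names the strain of each nucleus, and batch and strain together identify 1 mouse, which gave 4 mice per strain and 32 in all. Each strain has been inbred to near identity, so mice of a strain are close to genetic copies. The sex of single mice was not used.

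Long noncoding RNAs are transcripts with no recognised protein product, and many are made in 1 tissue or cell type. A processed pseudogene is a copy of a spliced messenger RNA that was inserted back into the genome, and it can be transcribed when it lands in a permissive place. CAST/EiJ, PWK/PhJ and WSB/EiJ were derived from wild mice, and the first and second of these come from other subspecies than the classical laboratory strains. The main neurons of the striatum are projection neurons that carry either the dopamine receptor gene Drd1 or Drd2.

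Names alone say little about these RNAs. A symbol of Gm and digits is a gene model from annotation, one ending in Rik goes back to a RIKEN complementary DNA clone, and AC149090.1 is called after a genomic clone. In the RefSeq table of build GRCm38.p6, 3 of the 7 were found. A830036E02Rik is a long noncoding RNA gene at chr11:99417243-99423098 on the forward strand. Ftl1-ps1 is a pseudogene at chr13:74406397-74407325, named after Ftl1, the gene of the ferritin light chain, a subunit of the shell that stores iron. E430024P14Rik appears only as an older name of the long noncoding RNA gene Gm1604a at chr17:7855073-8108015, while the count matrices hold a row for each name, so the place of its own row is uncertain.

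The promoter of A830036E02Rik is shown because a deposited ATAC peak, a region of open chromatin, covers 164 of the 300 bases around the start. The peak spans chr11:99417129-99418127, from 114 bases before the start site to 884 after it, if the deposited starts are read as counted from 0 (were they counted from 1, it would begin 1 base earlier). Capitals mark the bases under the peak in the RefSeq sequence of GRCm38.p6, chr11:99416993-99417292, forward strand.
A830036E02Rik promoter: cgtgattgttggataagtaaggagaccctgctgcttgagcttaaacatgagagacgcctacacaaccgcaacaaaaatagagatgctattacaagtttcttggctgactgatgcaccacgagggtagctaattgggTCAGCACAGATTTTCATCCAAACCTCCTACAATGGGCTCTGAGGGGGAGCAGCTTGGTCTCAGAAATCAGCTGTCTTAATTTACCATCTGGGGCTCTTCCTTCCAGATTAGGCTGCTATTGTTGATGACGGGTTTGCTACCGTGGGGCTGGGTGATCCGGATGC
Of the motifs searched on both strands, CCAAT had 1 match, the E-box CANNTG had 2 and TGACG, the core of the cAMP response element, had 1, while TATAAA and GGGCGG had 0. Among all 32817 RefSeq promoter windows of the same length, 37.4% held CCAAT, 72.3% CANNTG, 20.8% TGACG, 13.6% TATAAA and 35.6% GGGCGG. The window had a GC content of 48.7%, against a median of 52.7%. In all, 4 peaks lay in A830036E02Rik or within 1 kb of it, and 0 lay within 1 kb of Ftl1-ps1. Of the 4, the peak at chr11:99422166-99423164 also covers position 99422593, the start site of Krt12, an overlapping reverse-strand gene described below.

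The authors kept 55672 nuclei in 18 named clusters, with 944 to 4416 nuclei per mouse. Batch 3 was the shallowest, with a median of 3232 unique molecular identifiers (UMIs, the count of original molecules) per nucleus against 4593 to 4931 in the others, and 1517 barcode sequences (2.80%) occurred in more than 1 batch. The markers of the main neuron clusters were high where their names place them, with Drd1 at 219 counts scaled to equal totals (CPM, counts per 1000000) in Drd1+ neurons and Drd2 at 437 CPM in Drd2+ neurons. Drd1 was counted in other cells too and stood at 21.0 CPM in oligodendrocytes, 24.0 in astrocytes and 49.9 in endothelium. Counts were summed per mouse and cluster, and CPM per mouse are over totals scaled by TMM, while CPM called pooled are plain counts of all nuclei of a strain or cluster. The totals ran from 1710451 to 9416806 counts per mouse in Drd1+ neurons and from 53794 to 433270 in endothelium. In the strain term of edgeR's quasi-likelihood test, which the choice of members used, 6 of the 6 members tested in Drd1+ neurons had an adjusted p under 0.05, beside 61.7% of all genes tested there. Counts elsewhere were 7 of 7 in Drd2+ neurons (55.9% of all genes), 4 of 4 in astrocytes (21.5%), 2 of 2 in oligodendrocytes (34.8%), 1 of 2 in macrophages (24.8%), 5 of 5 in the cluster Drd1+ neuron_2 (17.3%), 2 of 2 in Nxph1+ interneurons (1.53%), 3 of 3 in endothelium (3.23%) and 1 of 1 in the mixed polydendrocyte and oligodendrocyte cluster (1.24%). These counts follow from how the members were chosen, and nothing is read from them. Gm40663 was too low for the test in Drd1+ neurons, and members were tested elsewhere only where their counts passed the same filter. The plot of levels by strain shows every mouse.

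**Figure D1:**
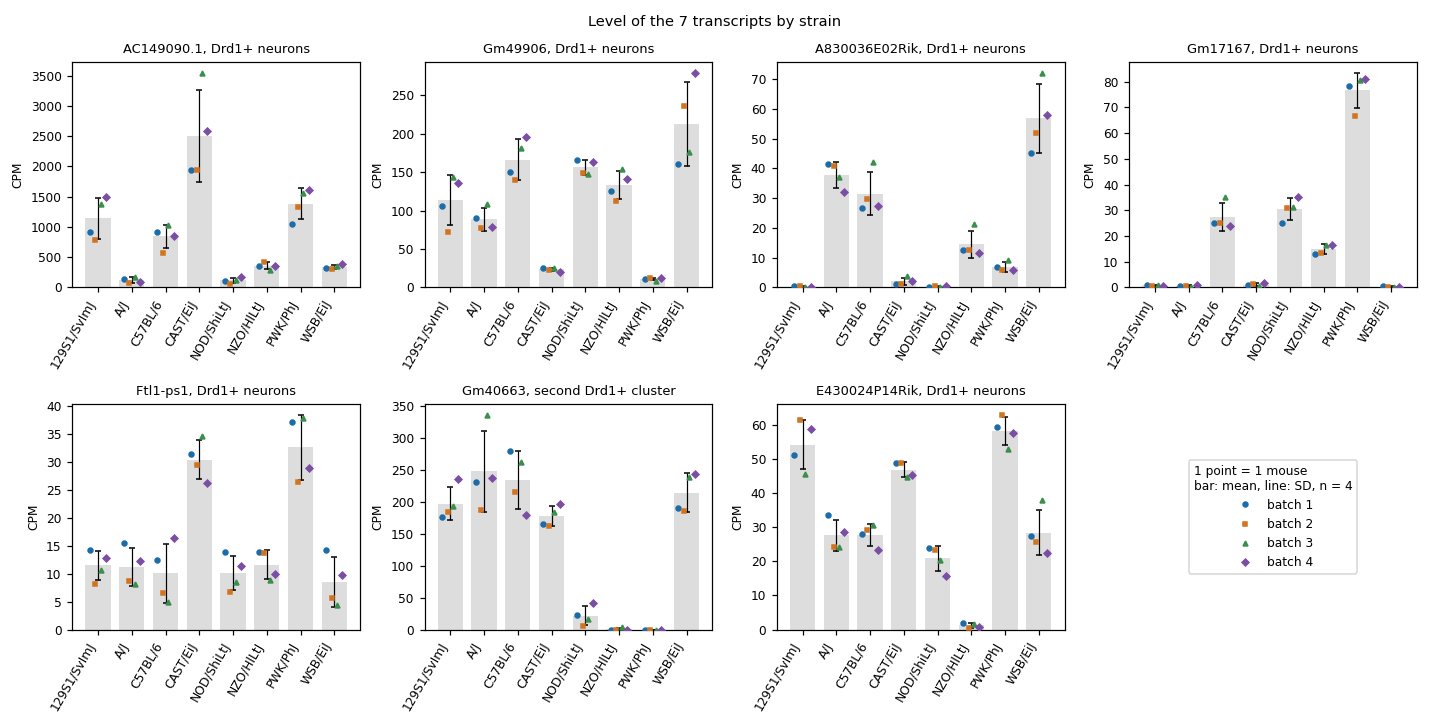
CPM of each member by strain in Drd1+ neurons, or in the second Drd1+ cluster for Gm40663; 1 point is 1 mouse, bars are means and lines SD (n = 4). CAST/EiJ is highest for AC149090.1, WSB/EiJ for Gm49906 and A830036E02Rik, PWK/PhJ for Gm17167, and NZO/HlLtJ lowest for E430024P14Rik.

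AC149090.1 was present in every cluster and differed between strains in a graded way. In Drd1+ neurons the CAST/EiJ mice of batches 1 to 4 had 1939, 1936, 3548 and 2585 CPM, and the PWK/PhJ mice 1044, 1334, 1561 and 1602. The 129S1/SvImJ mice had 916, 788, 1378 and 1488 CPM, and the C57BL/6 mice 923, 575, 1026 and 851. These 4 strains formed the upper range, CAST/EiJ apart from the others and PWK/PhJ overlapping 129S1/SvImJ. Below them, NZO/HlLtJ had 354, 427, 288 and 356 CPM and WSB/EiJ 319, 298, 353 and 388. The lowest values were those of A/J, at 145, 80.2, 172 and 89.8 CPM, and of NOD/ShiLtJ, at 103, 64.4, 121 and 173. NZO/HlLtJ and WSB/EiJ overlapped each other, as did A/J and NOD/ShiLtJ, and all mice of the former pair lay above all mice of the latter. Means ran from 2502 ± 761 CPM (SD, n = 4) in CAST/EiJ to 116 ± 45.2 in NOD/ShiLtJ, 21.7-fold.

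The same strains stood at the ends of the order across cell types. Over the 17 clusters with at least 100 counts of AC149090.1, CAST/EiJ was highest in 15 and PWK/PhJ in 2, while A/J was lowest in 13 and NOD/ShiLtJ in 4. Among the 17 is the small cluster Unknown_2, with 33 CAST/EiJ and 13 129S1/SvImJ nuclei but at most 4 of any other strain. The level itself varied with cell type: pooled over strains it was 764 CPM in Drd1+ neurons, 958 in macrophages, 248 in astrocytes and 213 in oligodendrocytes. In macrophages the range between strains ran from 519 ± 142 CPM in A/J to 3133 ± 560 in CAST/EiJ, 6.04-fold, against 19.2-fold in Drd2+ neurons and 13.8-fold in oligodendrocytes. Pisd, the gene of the mitochondrial enzyme phosphatidylserine decarboxylase, was looked at as a possible relative of AC149090.1, although their sequences were not compared. Its means in Drd1+ neurons lay between 26.4 ± 5.48 CPM in NOD/ShiLtJ and 34.5 ± 4.82 in PWK/PhJ (edgeR strain term, adjusted p = 0.0159). In Drd2+ neurons, oligodendrocytes and astrocytes the strain term of Pisd did not pass (edgeR adjusted p = 0.246, 0.392 and 0.0613).

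Gm49906 was an RNA of projection neurons, low in CAST/EiJ and PWK/PhJ. In Drd1+ neurons PWK/PhJ mice had 10.6, 12.1, 8.42 and 12.6 CPM and CAST/EiJ mice 25.9, 22.3, 24.9 and 20.4. The WSB/EiJ mice had 160, 236, 177 and 279 CPM, and the C57BL/6 mice 150, 140, 181 and 195. No mouse of PWK/PhJ or CAST/EiJ reached the lowest mouse of any other strain, 71.9 CPM in 129S1/SvImJ. The remaining means were 156 ± 9.65 CPM in NOD/ShiLtJ, 133 ± 18.1 in NZO/HlLtJ, 114 ± 32.6 in 129S1/SvImJ and 88.4 ± 14.6 in A/J, and from WSB/EiJ down to A/J each strain overlapped the next.

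The second Drd1+ cluster (Drd1+ neuron_2), which carried Otof at 220 CPM and Casz1 at 132, markers of eccentric projection neurons, held the highest Gm49906 levels. There C57BL/6 mice had 416, 325, 453 and 428 CPM and WSB/EiJ mice 338, 379, 391 and 485. CAST/EiJ had 0, 0, 9.90 and 6.32 CPM and PWK/PhJ 0, 0, 9.43 and 2.66, each from 3 counts in all. Outside the projection neurons Gm49906 was pooled at 0.659 CPM in oligodendrocytes, 1.52 in astrocytes and 1.50 in macrophages, that is 0.608% of its Drd1+ level in oligodendrocytes where Drd1 kept 9.62%. It was higher in mural cells (94.96 CPM), endothelium (42.03), ependyma (40.03) and the mixed polydendrocyte and oligodendrocyte cluster (30.7). Those 4 clusters also held Drd2, at 165, 73.1, 79.2 and 33.8 CPM in the same order, and the part of neuronal RNA in their Gm49906 was not tested. Cluster names are those of the authors: the mural marker Rgs5 stood at 403 CPM in mural cells but 1854 in endothelium. The small cluster Unknown_2 had 34.6 CPM of Gm49906, from 7 counts, with Drd2 at 9.87 CPM and Drd1 at 39.5.

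A830036E02Rik had 47.9% of its counts in Drd1+ neurons and 44.0% in Drd2+ neurons and gave only a few counts in 129S1/SvImJ and NOD/ShiLtJ. Both are also the clusters with the most counts of all genes, and its level pooled over strains was 20.0 CPM in Drd1+ and 23.5 in Drd2+ neurons. In Drd1+ neurons WSB/EiJ mice had 45.2, 51.8, 72.1 and 58.0 CPM, and A/J mice 41.4, 40.7, 37.2 and 31.9. C57BL/6 mice had 26.7, 29.7, 42.2 and 27.2 CPM and NZO/HlLtJ mice 12.6, 12.4, 21.4 and 11.6. WSB/EiJ was apart from A/J, A/J and C57BL/6 overlapped, and C57BL/6 was apart from NZO/HlLtJ. PWK/PhJ followed at 6.93 ± 1.61 CPM and CAST/EiJ at 2.04 ± 1.23 (n = 4 each). The 129S1/SvImJ mice had 0.433, 0.601, 0 and 0 CPM from 4 counts, and the NOD/ShiLtJ mice 0, 0.337, 0 and 0.343 from 2 counts.

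With so few counts in the lowest strains no ratio is given. Drd2+ neurons had WSB/EiJ and 129S1/SvImJ at the ends, with 70.6 ± 7.92 CPM in WSB/EiJ and 0.114 ± 0.229 in 129S1/SvImJ, the latter from 1 count. In the second Drd1+ cluster, with 126 counts, C57BL/6 mice had 50.5, 52.0, 33.4 and 96.7 CPM and WSB/EiJ mice 27.1, 67.3, 76.4 and 36.4. C57BL/6 was highest there and overlapped WSB/EiJ, and 129S1/SvImJ had 0 counts. Another place of high level was the smaller cluster of Slc17a7+ neurons (excitatory cells), at 24.3 CPM pooled over strains. It had 64.6 CPM in C57BL/6 (95% exact Poisson interval 40.0 to 98.8, counting error only) and 54.2 in NZO/HlLtJ (30.3 to 89.4). Glia had little: 15 counts in oligodendrocytes and 4 in astrocytes, 0.706 and 0.357 CPM.

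Krt12, a keratin gene at chr11:99415664-99422593 on the reverse strand, overlaps A830036E02Rik, and whether counting used strand is not given in the sources used here, so reads of the pair cannot be told apart with certainty. In Drd1+ neurons Krt12 stood at 19.4, 20.7, 13.97 and 18.4 CPM in the WSB/EiJ mice and 13.03, 18.9, 11.5 and 8.64 in the C57BL/6 mice. In 129S1/SvImJ the mice had 1.298, 0.902, 0.792 and 1.01 CPM and in NOD/ShiLtJ 0.445, 1.01, 0 and 0. WSB/EiJ thus had the highest and NOD/ShiLtJ the lowest mean for both genes, but NOD/ShiLtJ overlapped 129S1/SvImJ for both, so which of these is lowest is not settled. The strain term of Krt12 had F = 61.7 in edgeR, with an adjusted p of 1.17e-18 (n = 4 mice per strain).

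**Figure D2:**
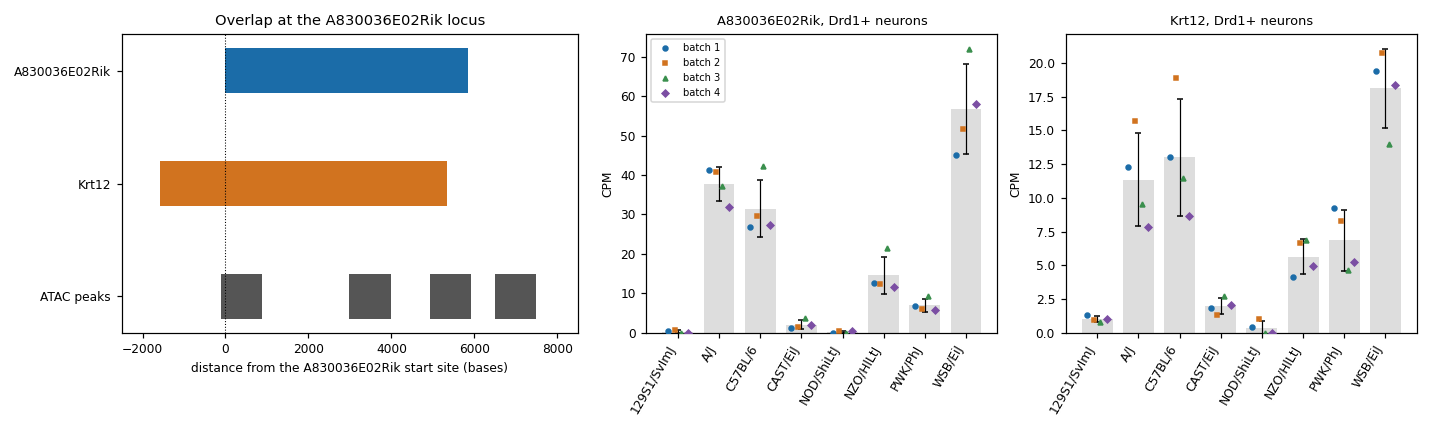
Left, extent of A830036E02Rik, Krt12 and the deposited ATAC peaks by distance in bases from the A830036E02Rik start site; middle and right, CPM of both genes by strain in Drd1+ neurons (points are mice, bars means, lines SD, n = 4). Both genes are highest in WSB/EiJ and near 0 in 129S1/SvImJ and NOD/ShiLtJ.

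Gm17167 was present in 4 strains and close to 0 in the others. PWK/PhJ mice had 78.3, 66.5, 80.4 and 81.2 CPM in Drd1+ neurons. NOD/ShiLtJ mice had 24.9, 31.0, 31.3 and 35.0 CPM, C57BL/6 mice 25.2, 25.1, 35.3 and 23.8, and NZO/HlLtJ mice 13.1, 13.3, 16.5 and 16.5. PWK/PhJ was apart from all others, NOD/ShiLtJ and C57BL/6 overlapped, and NZO/HlLtJ was apart from both neighbours in the order. The highest mouse among WSB/EiJ, CAST/EiJ, A/J and 129S1/SvImJ had 1.63 CPM.

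This division of strains was also seen outside projection neurons. PWK/PhJ was highest in each of the 5 clusters with at least 100 counts of Gm17167. In astrocytes PWK/PhJ mice had 98.2, 109, 201 and 138 CPM and C57BL/6 mice 54.9, 63.4, 61.6 and 39.9, while WSB/EiJ, CAST/EiJ, A/J and 129S1/SvImJ each had 1 or 2 counts in all. The larger Slc17a7+ cluster reached 179 CPM in PWK/PhJ (exact Poisson interval 150 to 213), 121 in NOD/ShiLtJ (104 to 139) and 112 in C57BL/6 (90.2 to 138). Oligodendrocytes stayed between 0.267 and 1.72 CPM in every strain, from 19 counts.

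Gm40663 was mainly an RNA of the second Drd1+ cluster, which held 71.5% of its 1209 counts. In that cluster A/J mice had 231, 187, 336 and 236 CPM and C57BL/6 mice 280, 215, 262 and 180. WSB/EiJ mice had 190, 185, 239 and 242 CPM, 129S1/SvImJ mice 176, 184, 192 and 235, and CAST/EiJ mice 166, 162, 183 and 196. These 5 strains overlapped from each to the next. NOD/ShiLtJ mice had 23.0, 5.82, 16.1 and 41.5 CPM, above all mice of NZO/HlLtJ with 0, 0, 4.06 and 0, and the PWK/PhJ mice all had 0. For the 0 counts in PWK/PhJ a floor of 3 counts is a pooled level of 2.92 CPM, and the upper limit of the exact Poisson interval is 3.59. A/J, pooled on the same plain totals at 213 CPM, was 72.9-fold above that floor. PWK/PhJ had 21 counts of Gm40663 in the other clusters together.

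In the main projection neuron clusters Gm40663 was low, with pooled levels of 1.71 CPM (Drd1+) and 1.38 (Drd2+). The small cluster Unknown_2, of 57 nuclei, came second with 49.4 CPM from 10 counts. Of its nuclei 33 were CAST/EiJ and 13 were 129S1/SvImJ, with at most 4 of any other strain. Of the 10 counts, 8 were in CAST/EiJ (71.6 CPM, exact Poisson interval 30.9 to 141) and 2 in 129S1/SvImJ (34.6 CPM, 4.19 to 125). So few nuclei of the other strains cannot show whether they differ there. In Nxph1+ interneurons 15 of its 18 counts were in CAST/EiJ (32.1 CPM pooled, exact Poisson interval 17.98 to 53.0). The 4 CAST/EiJ mice had 0, 79.2, 19.6 and 27.2 CPM there, from 0, 11, 1 and 3 counts, so most came from the mouse of batch 2. In endothelium 12 of 14 were in CAST/EiJ (26.7 CPM pooled, 13.8 to 46.6), and its mice of batches 1, 2 and 4 had 33.7, 36.4 and 30.4 CPM.

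E430024P14Rik was present in 7 strains and low in NZO/HlLtJ. In Drd1+ neurons NZO/HlLtJ mice had 2.06, 0.444, 1.71 and 0.826 CPM from 17 counts. PWK/PhJ mice had 59.5, 63.0, 53.0 and 57.8 CPM, 129S1/SvImJ mice 51.3, 61.6, 45.5 and 58.8, and CAST/EiJ mice 48.8, 48.9, 44.8 and 45.3. These 3 strains formed an upper group apart from WSB/EiJ (28.4 ± 6.69 CPM), C57BL/6 (27.9 ± 3.22) and A/J (27.6 ± 4.47), which overlapped. NOD/ShiLtJ, at 20.9 ± 3.74 CPM, overlapped C57BL/6 and WSB/EiJ and lay above NZO/HlLtJ. NZO/HlLtJ was lowest in each of the 6 clusters with at least 100 counts.

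Gm1604a, under whose entry RefSeq lists E430024P14Rik, had another order of strains. Its NZO/HlLtJ mice had 119, 134, 112 and 111 CPM, and its lowest mean was 27.3 ± 4.83 CPM in WSB/EiJ. Fndc1, which encodes a protein with fibronectin type III domains and lies before Gm1604a at chr17:7738569-7827340, was also lowest in NZO/HlLtJ: NZO/HlLtJ mice had 7.72, 8.00, 9.70 and 8.26 CPM, and the other means ran from 28.0 ± 4.56 CPM in C57BL/6 to 77.7 ± 13.2 in PWK/PhJ. Gm1604a and Fndc1 were picked for this after values were seen. Over the 32 mice of Drd1+ neurons Fndc1 followed E430024P14Rik with a Pearson r of 0.87, given as a description.

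**Figure D3:**
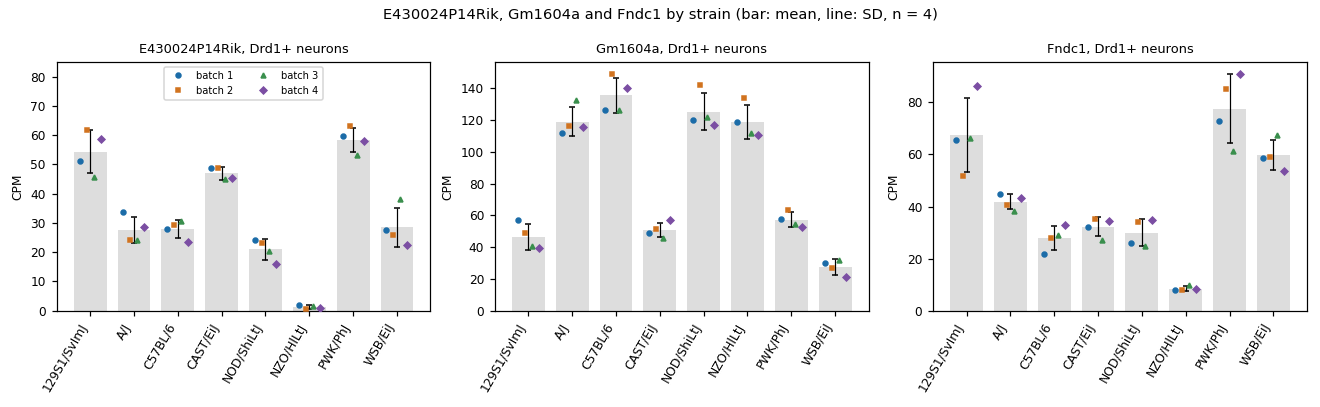
CPM of E430024P14Rik, Gm1604a and Fndc1 by strain in Drd1+ neurons; points are mice, bars means and lines SD (n = 4). NZO/HlLtJ is lowest for E430024P14Rik and Fndc1 but at 119 CPM for Gm1604a.

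Ftl1-ps1 had a different strain pattern in the 2 kinds of projection neuron. In Drd1+ neurons CAST/EiJ mice had 31.4, 29.5, 34.6 and 26.1 CPM and PWK/PhJ mice 37.2, 26.3, 37.9 and 28.9, while mice of the other 6 strains had 4.47 to 16.4. In Drd2+ neurons A/J mice had 37.8, 27.7, 32.7 and 40.1 CPM, C57BL/6 mice 30.6, 25.1, 33.2 and 38.0, and NZO/HlLtJ mice 34.7, 28.8, 26.6 and 39.1. Those 3 strains were there in the range of CAST/EiJ (29.7 ± 3.29 CPM) and PWK/PhJ (31.5 ± 5.02), while 129S1/SvImJ (11.3 ± 3.48), NOD/ShiLtJ (12.4 ± 3.68) and WSB/EiJ (9.18 ± 2.70) stayed low. The change from Drd1+ to Drd2+ neurons of the same mouse was a log2 ratio of 1.57 ± 0.266 in A/J, 1.68 ± 0.631 in C57BL/6 and 1.41 ± 0.368 in NZO/HlLtJ (CPM plus 1), above 0 in 4 of 4 mice each. In the other strains the mean ratio lay between -0.04 and 0.27. The highest of these, NOD/ShiLtJ at 0.27 ± 0.290, was also above 0 in 4 of 4 mice, and WSB/EiJ in 3 of 4.

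Whether strain effects differed between clusters of the same mice was tested as an interaction in edgeR, a contrast other than the strain effects that chose the members, though from the same counts. The 3 interaction tests share the Drd1+ libraries. Between Drd1+ and Drd2+ neurons, 2 of the 6 members tested in each cluster passed, beside 4.58% of all genes tested. Ftl1-ps1 had an adjusted p of 5.19e-21. AC149090.1 had an adjusted p of 2.69e-04, with small ratios from -0.15 ± 0.103 in NZO/HlLtJ to 0.22 ± 0.132 in A/J. Without batch 2, AC149090.1 did not pass (edgeR adjusted p = 0.122). The other 4 had adjusted p from 0.109 to 0.880 in edgeR.

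Ftl1 itself was lowest in the strains where its pseudogene was high in Drd1+ neurons. In Drd1+ neurons its means were 41.3 ± 9.06 CPM in CAST/EiJ and 46.9 ± 5.93 in PWK/PhJ and 58.8 to 70.1 in the other strains (edgeR strain term, adjusted p = 1.17e-06). The sum of the pair lay between 67.4 ± 4.56 and 80.2 ± 8.77 CPM, and Ftl1-ps1 made up 42.2% of it in CAST/EiJ and 40.9% in PWK/PhJ against 12.7% to 16.1% elsewhere. The sequences of Ftl1 and Ftl1-ps1 were not compared here. Where a pseudogene is close in sequence to its parent, reads can be counted to either row, so both levels are uncertain. The interaction of Ftl1 between Drd1+ and Drd2+ neurons had an adjusted p of 0.675 in edgeR, and its A/J, C57BL/6 and NZO/HlLtJ means in Drd2+ neurons were 62.8 ± 5.48, 61.0 ± 5.03 and 62.5 ± 5.27 CPM. In those 3 strains the sum in Drd2+ neurons was 92.7 to 97.3 CPM. Fth1, the gene of the ferritin heavy chain, had an adjusted p of 0.0268 in edgeR's Drd1+ strain term and means of 982 ± 85.3 to 1147 ± 41.7 CPM. Its strain term did not pass in Drd2+ neurons, oligodendrocytes, astrocytes, endothelium or macrophages (edgeR adjusted p = 0.124 to 0.909).

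Endothelium held higher Ftl1-ps1 levels than the neurons in CAST/EiJ and PWK/PhJ. CAST/EiJ mice of batches 1, 2 and 4 had 413, 357 and 415 CPM, and PWK/PhJ mice 337, 199, 93.2 and 400. The highest mouse of the other strains had 86.8 CPM, in WSB/EiJ. Ftl1 in the same libraries was 125 ± 57.1 CPM (n = 3) in CAST/EiJ and 133 ± 37.7 in PWK/PhJ, while other strains averaged 391 to 532 (edgeR strain term, adjusted p = 7.26e-05). Ftl1-ps1 made up 76.0% and 69.1% of the pooled counts of the pair in CAST/EiJ and PWK/PhJ, and 3.78% to 6.80% in the other strains. The sum of the pair was 520 ± 53.5 CPM in CAST/EiJ and 390 ± 114 in PWK/PhJ, against 424 to 563 in the other strains. Reads could be counted to either row here too, and the true share of each was not tested. Batch 3 gave fewer than 10 endothelial nuclei for CAST/EiJ, A/J and WSB/EiJ, and those libraries are left out. Oligodendrocytes, astrocytes and macrophages also had their highest Ftl1-ps1 means in CAST/EiJ or PWK/PhJ, between 78.8 and 128 CPM. In macrophages the spread was wide, with 128 ± 55.4 CPM in PWK/PhJ and 41.2 ± 33.1 in A/J, and Ftl1-ps1 was the member whose strain term did not pass there.

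**Figure D4:**
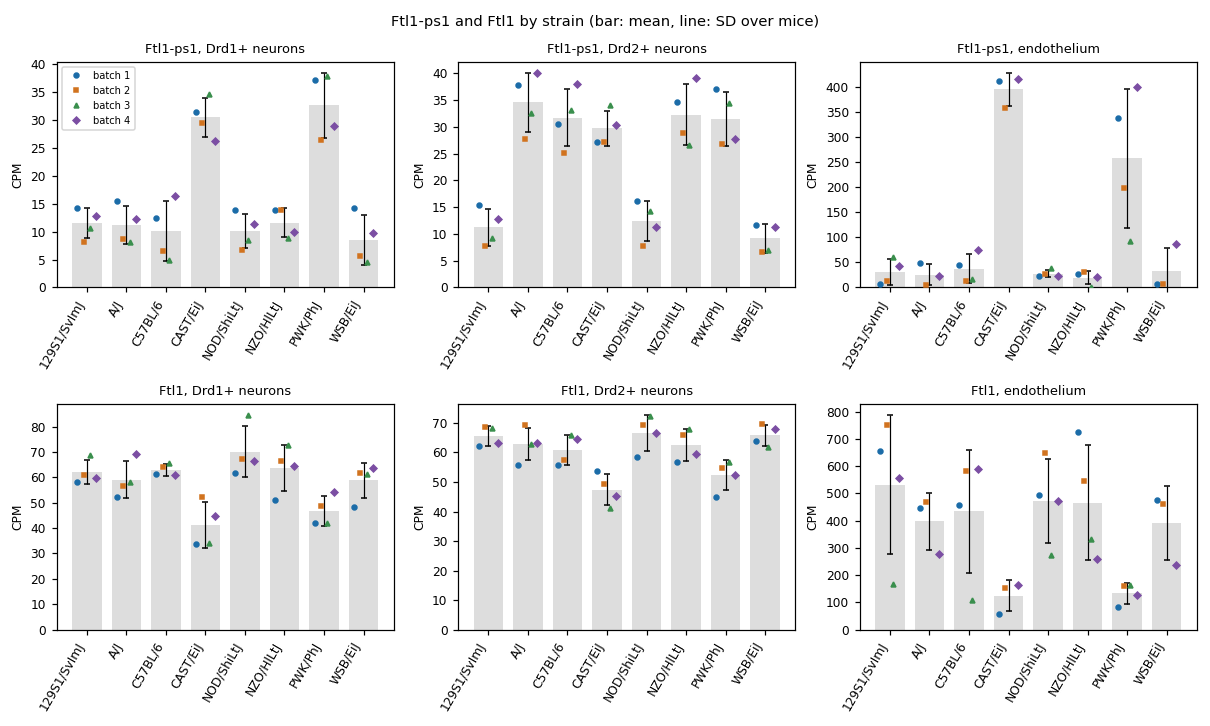
CPM of Ftl1-ps1 (top) and Ftl1 (bottom) by strain in Drd1+ neurons, Drd2+ neurons and endothelium; points are mice, bars means and lines SD (n = 4, or 3 in endothelium of A/J, CAST/EiJ and WSB/EiJ). Ftl1-ps1 is high in CAST/EiJ and PWK/PhJ in all 3 clusters and in A/J, C57BL/6 and NZO/HlLtJ in Drd2+ neurons.

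Between Drd1+ neurons and oligodendrocytes, AC149090.1 and Ftl1-ps1 were the 2 members with enough counts to be tested in each cluster, and 1 of these 2 passed the interaction test, beside 16.9% of all genes. AC149090.1 had an adjusted p of 1.40e-04 in edgeR, and its log2 ratio of oligodendrocytes to Drd1+ neurons (CPM plus 1) ran from -2.07 ± 0.269 in 129S1/SvImJ to -1.02 ± 0.559 in NOD/ShiLtJ, below 0 in all mice. Without the mouse as block AC149090.1 did not pass here (edgeR adjusted p = 0.293), nor in the tests with Drd2+ neurons (1) and astrocytes (0.153). Ftl1-ps1 had an adjusted p of 0.596 in edgeR. Drd1 in oligodendrocytes was 9.62% of its level in Drd1+ neurons and AC149090.1 27.9%. The part of free RNA, from any strain of the batch, in the oligodendrocyte values was not tested. The other members in that fit passed the filter on low counts only through Drd1+ neurons, where they are high, and their interaction is not read as a result. A830036E02Rik, Gm17167 and Gm49906 had 15, 19 and 14 counts in oligodendrocytes of all strains together, and E430024P14Rik had 109.

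Between Drd1+ neurons and astrocytes, 2 of the 4 members tested in each cluster passed, beside 11.4% of all genes. AC149090.1 (edgeR adjusted p = 4.00e-06) had a lowest log2 ratio of astrocytes to Drd1+ neurons of -1.73 ± 0.170 in 129S1/SvImJ, below 0 in 4 of 4 mice. The smallest drops were in the strains lowest for this RNA, -0.32 ± 0.603 in NOD/ShiLtJ, below 0 in 3 of 4, and -0.89 ± 0.343 in A/J. E430024P14Rik (edgeR adjusted p = 0.00852) had ratios from -2.74 ± 2.09 in PWK/PhJ to 0.89 ± 0.437 in NZO/HlLtJ, the latter from 4 astrocyte counts in all. When all libraries were thinned to 1 total, neither passed (edgeR adjusted p = 0.171 and 0.871), and E430024P14Rik did not pass without batch 2 (0.113).

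**Figure D5:**
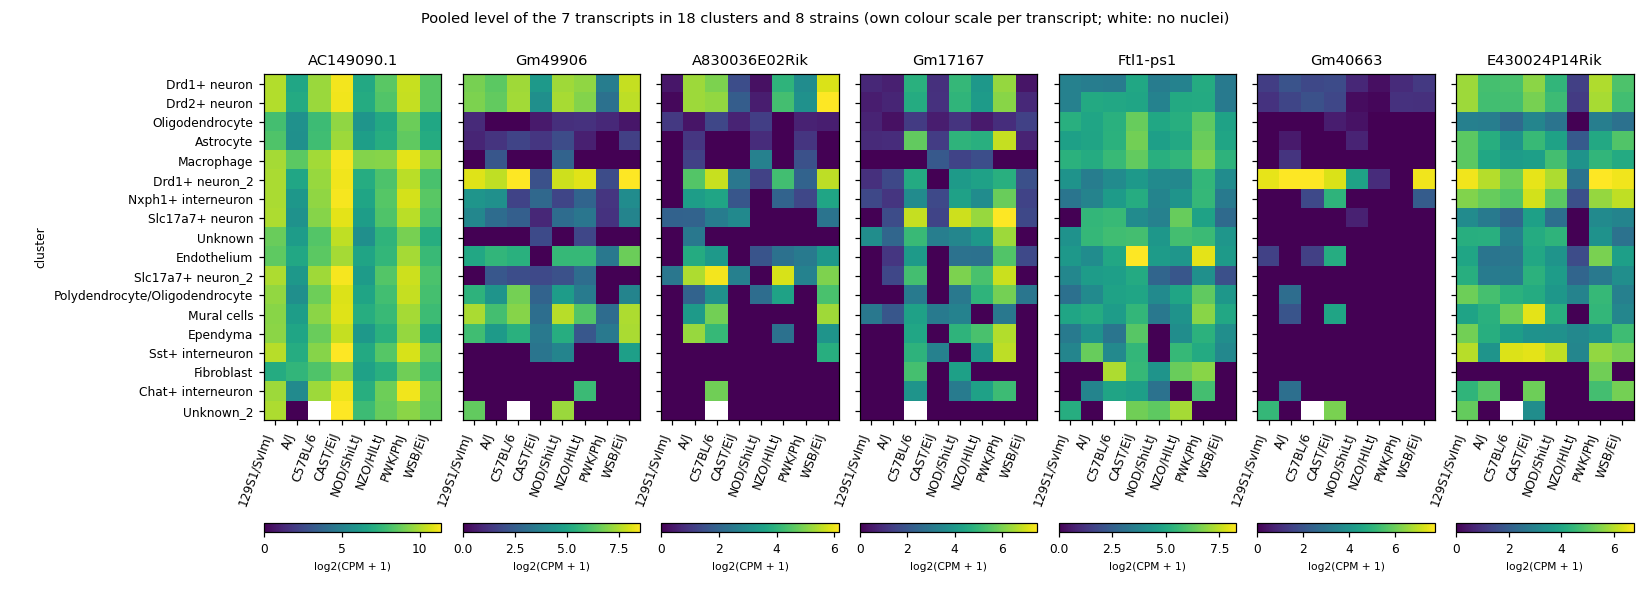
Pooled level, log2(CPM + 1), of each member in the 18 clusters (rows) and 8 strains (columns), with its own colour scale; white marks no nuclei. AC149090.1 is highest in CAST/EiJ or PWK/PhJ in the 17 clusters with at least 100 counts, Gm40663 stands out in the second Drd1+ cluster, and Ftl1-ps1 is brightest in endothelium of CAST/EiJ and PWK/PhJ.

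Batch was another contrast that had no part in the choice. In Drd1+ neurons 2 of the 6 members tested differed between batches, beside 24.8% of all genes. A830036E02Rik averaged 23.2 CPM over strains in batch 3 and 16.8 to 17.8 in the others, with batch 3 highest in 5 of 8 strains (edgeR adjusted p = 0.00981; 0.867 without batch 3). Ftl1-ps1 averaged 19.1 CPM in batch 1 and 13.2 to 15.9 in the others, with batch 1 highest in 5 of 8 strains (edgeR adjusted p = 0.00696; 0.249 without batch 1 and 0.0723 without batch 2). Every batch held all 8 strains, so these differences lie across the strain differences.

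Genes next to the members on the chromosome were not chosen by their values. RefSeq gave 18 neighbours for the 3 located members, of which 11 had a row in the matrices and 6 could be tested in Drd1+ neurons, and 5 of these passed the strain term, beside the 61.7% of all genes; their median F was 7.14 and that of all genes 3.38. Of the 5, Krt12 and Rsph3a overlap the span of a member, and their counts cannot be told apart with certainty from the member's own. Without overlapping neighbours 3 of 4 passed, with a median F of 5.01. For Ftl1-ps1 the neighbour with the largest F was the long noncoding RNA gene E430024I08Rik (chr13:74432224-74463612), with means of 10.6 ± 1.37 CPM in CAST/EiJ, 10.9 ± 1.94 in PWK/PhJ and 11.6 ± 1.85 in WSB/EiJ and 16.3 to 20.8 in the other strains (edgeR adjusted p = 4.21e-08). For E430024P14Rik, whose own place is uncertain, it was Rsph3a, which encodes a radial spoke head protein of cilia, with 24.5 ± 4.45 CPM in 129S1/SvImJ, 23.5 ± 2.07 in PWK/PhJ and 13.8 to 16.4 elsewhere (edgeR adjusted p = 5.48e-06). When neighbours were instead taken as the nearest 3 genes with a row in the matrices, 9 of 11 tested passed, and Fndc1 (F = 89.5) then had a larger F than Rsph3a (8.77) among those of E430024P14Rik. In other clusters the RefSeq neighbours passed in 5 of 6 tests in Drd2+ neurons (55.9% of all genes) and 1 of 3 in astrocytes (21.5%). In oligodendrocytes it was 0 of 2 (34.8%) and in Drd1+ neuron_2 0 of 1 (17.3%).

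Features named like the members, the members themselves left out, were counted in the same strain term. Of those tested in Drd1+ neurons, 773 of 1170 symbols of Gm and digits (66.1%), 470 of 669 ending in Rik (70.3%), 7 of 9 clone names and 1 of 6 symbols containing -ps passed, against 61.7% of all genes. As a description over the 32 mice of Drd1+ neurons, which share strain and batch, the genes most like each member among 9044 were Fxyd2 for AC149090.1 (Pearson r = 0.87), Gm1976 for Gm49906 (0.95), Stk3 for A830036E02Rik (0.79), Dctd for Gm17167 (0.77), Fbxl7 for Ftl1-ps1 (0.83), Reep1 for Gm40663 (0.67, from 178 counts, too few for the test) and Snhg11 for E430024P14Rik (0.88). The next in order were Gm50335 and Pigf, Rsph10b and Gm3510, Gm13883 and Smg9, Lmo2 and Hdhd2, Osgepl1 and Mthfs, Wdr37 and Phtf1, and Fndc1 and Fam57a. In the second Drd1+ cluster, which holds most Gm40663 counts, the gene most like it among 5539 was Rab3c (0.77), and this cluster was looked at in addition to the rule.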

How the data were processed

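Unique molecular identifier counts per gene and nucleus of 4 batches were deposited by the authors with an annotation of 55672 nuclei, in which the deposited columns of cluster, strain and batch are categories. Reads were processed with bcl2fastq 2.20.0.422 and Cell Ranger ARC 2.0.0 on mm10 (GRCm38), per the submitters' processing notes. The same build was named for all strains, and its effect on the counts of other strains was not tested. Strain was assigned with Demuxlet and doublets were marked with DoubletFinder, per the file descriptions the authors deposited. Of 291715 peaks, 1 deposited list for all batches gives positions only, and how they were called is not given in the sources used here.

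Here counts were summed per mouse and cluster, and libraries of at least 10 nuclei were kept. A cluster was tested where each strain had at least 3 mice. Genes passing filterByExpr were fitted with edgeR 4.0.16 (R 4.3.3, TMM, robust quasi-likelihood), with Benjamini-Hochberg adjustment over all genes tested and a threshold of 0.05. Strain terms had batch as covariate, the batch term strain, and interactions of strain and cluster the mouse as block. Tables used Python 3.11.15, numpy 2.4.6, pandas 2.3.3 and scipy 1.17.1. Log2 ratios between clusters added 1 CPM. Counting intervals and floors (3 counts) cover counting error only. Members and lists were chosen with earlier results of these data known. Named were the members, the 3 genes most alike over Drd1+ mice among those of at least 10 CPM, and the called neighbour of largest F among 3 on each side. Alternatives were another scaling (RLE), no filter, DESeq2 1.42.0, thinned libraries, at least 50 nuclei, each batch left out, and no block. Same-batch mice deviated together (mean r 0.183 over 112 pairs, against -0.0602 over 336 others). Nuclei marked as doublets are left out. On simulated counts, 81.1% of genes changed 2-fold were recovered for the strain term in Drd1+ neurons, 97.9% for the batch term, and 64.4%, 31.4% and 23.8% for the interactions with Drd2+ neurons, oligodendrocytes and astrocytes. The simulated spread followed the fitted trend up to a set limit, partly shared within a mouse for interactions. Only PWK/PhJ or a batch was changed. Recovery may be lower for genes of larger spread.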

Additional observations from a re-analysis of the deposited data

Results flagged for a closer look

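In 3 of 55 groups of 4 mice tested, 1 mouse lay far from the others; chance alone flags about 1 in 20. The NZO/HlLtJ mouse of batch 3 had 21.4 CPM of A830036E02Rik in Drd1+ neurons, against 11.6 to 12.6 in the others. The C57BL/6 mouse of batch 3 had 35.3 CPM of Gm17167 there, against 23.8 to 25.2. The NZO/HlLtJ mouse of batch 3 had 4.06 CPM of Gm40663 in the second Drd1+ cluster, from 1 count, against 0 in the others; with 3 mice at 0 any count in the fourth meets this rule, so it says nothing of that mouse. Batch 3 was the shallowest, and its part in these values was not tested.

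In edgeR's interaction of strain and cluster, 2 of the 6 members tested in both Drd1+ and Drd2+ neurons passed, beside 4.58% of all genes. With oligodendrocytes 1 of 2 passed (16.9% of all genes), and with astrocytes 2 of 4 (11.4%). The 3 tests share the Drd1+ libraries and use the counts from which the members were chosen, and the part of free RNA in them was not tested. Between Drd1+ and Drd2+ neurons these were Ftl1-ps1 (adjusted p = 5.19e-21) and AC149090.1 (2.69e-04; 0.122 without batch 2). Between Drd1+ neurons and oligodendrocytes it was AC149090.1 (1.40e-04). Between Drd1+ neurons and astrocytes these were AC149090.1 (4.00e-06; 0.171 with libraries thinned to 1 total) and E430024P14Rik (0.00852; 0.871 thinned and 0.113 without batch 2). Without the mouse as block AC149090.1 passed none of the 3 tests (adjusted p = 1, 0.293 and 0.153). With oligodendrocytes, edgeR also gave adjusted p of 3.31e-06 for A830036E02Rik, 7.12e-05 for Gm17167 and 0.0440 for Gm49906. These 3 had 14 to 19 counts in oligodendrocytes and passed the filter only through Drd1+ neurons, where their strain differences chose them, so the values support nothing further. A830036E02Rik did not pass when thinned (0.589), and Gm49906 did not pass with DESeq2 (0.0867) or without any 1 of the 4 batches (0.0822 to 0.239).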

How the results depend on the processing

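Of the values that answer a comparison, 106 stayed within the limits set for the same result and 14 moved, and of the other values 219 stayed, 19 lost a call and 5 gained one; none reversed. The Drd1+ and Drd2+ interaction gave 631 genes, 417 with libraries thinned to 1 total and 69 with no replicate block, and 421 to 488 with 1 batch left out. For oligodendrocytes the 2352 genes became 1166 when thinned and 1510 to 2246 with 1 batch left out, and for astrocytes the 1633 became 291 and 1011 to 1462 (1011 without batch 2). The batch term gave 3331 genes and 1114 without batch 3 (1114 to 3375 with 1 batch left out). With no replicate block, AC149090.1 passed none of the 3 interaction tests (edgeR adjusted p = 1, 0.293 and 0.153). Ftl1-ps1 passed between Drd1+ and Drd2+ neurons in all alternatives run (9.77e-36 to 8.99e-06). AC149090.1 passed the batch term with no filter, with DESeq2 (0.0269) and thinned (0.0498), and Gm49906 with no filter (9.56e-04). Neighbours that passed were 5, and, under definitions added after seeing the data, 9 with the nearest genes in the matrices and 3 without those that overlap a member. With 1 CPM in place of 0.1 CPM added, the log2 span between strains became 5.63 for A830036E02Rik (7.72), 5.95 for Gm17167 (7.76) and 7.96 for Gm40663 (11.27). The lowest strain had 2, 4 and 0 counts of these RNAs in the same order, so the added constant sets these spans. They are not read as folds. The causes of the other changes were not tested. Astrocytes, endothelium and the rare clusters hold few counts per mouse, which limits what a level near 0 there can show.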

Other observations

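Nuclei that the authors left out of the annotated clusters gave values in no comparison above. In 3003 nuclei removed on biological relevance, the highest strain was the same as in the annotated nuclei for each of the 7 RNAs, while the lowest strain differed for Gm17167, Ftl1-ps1 and Gm40663. Some were near ties in the removed nuclei: Gm40663 had 3.11 CPM in CAST/EiJ (7 counts) and 2.25 in C57BL/6 (5 counts), and Ftl1-ps1 36.0 CPM in PWK/PhJ and 35.1 in CAST/EiJ. These nuclei come from the same mice and are no independent check. AC149090.1 stood at 1962 CPM in CAST/EiJ and 138 in A/J there, and E430024P14Rik at 52.3 CPM in PWK/PhJ and 4.49 in NZO/HlLtJ. In 6719 nuclei called doublets, AC149090.1 stood at 2296 CPM in CAST/EiJ and 90.3 in A/J, and Gm17167 at 61.5 CPM in PWK/PhJ. The highest strain differed in the doublets for Gm49906 (C57BL/6, 46.3 CPM) and E430024P14Rik (CAST/EiJ, 49.6 CPM), and the lowest strain for A830036E02Rik and Gm17167. These sets mix cell types in unknown shares and were not tested.

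The larger Slc17a7+ cluster of excitatory neurons had another order of strains for Ftl1-ps1 than Drd1+ neurons, in pooled counts with exact Poisson intervals for counting error only. NZO/HlLtJ had 82.1 CPM (57.5 to 114), C57BL/6 47.3 (33.5 to 65.0) and A/J 43.5 (34.3 to 54.6). PWK/PhJ had 26.2 CPM (15.8 to 40.9), CAST/EiJ 15.05 (8.60 to 24.4), NOD/ShiLtJ 11.5 (6.80 to 18.1) and WSB/EiJ 6.21 (2.28 to 13.5). 129S1/SvImJ had 0 counts, with an upper limit of 10.5 CPM by the same interval. The smaller Slc17a7+ cluster shared this order only in part. CAST/EiJ was highest there at 32.6 CPM (16.8 to 56.95), and NZO/HlLtJ had 3.62 CPM from 1 count (0.0915 to 20.1). C57BL/6 at 24.6 CPM (10.6 to 48.5) and A/J at 23.1 (14.6 to 34.7) overlapped CAST/EiJ. As in the larger cluster, they stood above NOD/ShiLtJ at 5.51 CPM (1.79 to 12.9) and WSB/EiJ at 3.04 (0.0770 to 16.9), though some intervals overlapped. Both clusters held too few nuclei of some mice for a test.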
